A study of Mus musculus with 2 samples.

Results

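The RNA components of stable ribonucleoproteins were examined in total RNA-seq of the mouse adrenal gland. The group was defined by 10 gene symbols: Rn7s1 and Rn7s2, the 7SL RNAs of the signal recognition particle, Rn7sk, the 7SK RNA, Rpph1, the RNA of RNase P, Rmrp, the RNA of RNase MRP, Terc, the telomerase RNA, Rnu12, the U12 small nuclear RNA, Rny1 and Rny3, the Y RNAs, and Vaultrc5, the vault RNA. Symbols were matched in the deposited tables and gave 11 gene entries of 55536 genes, because Rmrp has 2 overlapping entries of 271 and 281 bases. The tissue came from male mice of the hybrid strain B6CASTF1/J at 2 months of age, and no treatment was named. The series holds 1 group of 2 libraries, replicates 1 and 2. Both started from 300 ng of total RNA, with ribosomal RNA removed, ERCC spike-ins (synthetic RNAs added in known amounts) and a directional kit. The labels disagree on whether the libraries come from different animals, so the spread between them may be technical, and no test between conditions was possible.

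These RNAs do not code for protein and work as the scaffold or the catalytic core of a particle. 7SL pauses translation of secreted and membrane proteins and carries the ribosome to the endoplasmic reticulum, and 7SK holds the elongation kinase P-TEFb inactive in the nucleus. RNase P trims the leader of transfer RNA precursors, RNase MRP cuts precursors of ribosomal RNA, telomerase copies its RNA template onto chromosome ends, U12 recognises the branch site of the rare minor class of introns, Y RNAs bind the Ro protein, and vault RNA lies within the vault particle. Most of them are made by RNA polymerase III, which stops at a run of T in the non-template strand, whereas Terc and U12 are products of RNA polymerase II. Adrenal cortex cells import cholesterol and make steroids with enzymes of the endoplasmic reticulum and mitochondria, and medulla cells secrete catecholamines and peptides.

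Sequences are those of the annotated transcripts (GENCODE M21, mouse build GRCm38, also called mm10), written 5′ to 3′ as DNA. Rn7s1 (chr12:69159295-69159594, plus strand) and Rn7s2 (chr12:69361182-69361481, minus strand) match at 300 of 300 bases, so no read within them can be assigned to either locus. The first 100 and the last 40 of the 331 bases of Rn7sk (chr9:78175303-78175633, minus strand) are shown because GATC, a short sequence that recurs in the protein-binding 5′ hairpin of 7SK, occurs there at bases 13, 42 and 64. Capitals mark GATC and the 3-base T run at the end.
Rn7sk bases 1 to 100: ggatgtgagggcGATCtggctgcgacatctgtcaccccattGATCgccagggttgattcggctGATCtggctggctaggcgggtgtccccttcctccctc
Rn7sk bases 292 to 331: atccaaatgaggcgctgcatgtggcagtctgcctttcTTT
The 281-base entry of Rmrp (chr4:43492783-43493063, minus strand) is shown because it contains the whole 271-base entry (chr4:43492788-43493058), marked by capitals, with 5 further bases on each side.
Rmrp: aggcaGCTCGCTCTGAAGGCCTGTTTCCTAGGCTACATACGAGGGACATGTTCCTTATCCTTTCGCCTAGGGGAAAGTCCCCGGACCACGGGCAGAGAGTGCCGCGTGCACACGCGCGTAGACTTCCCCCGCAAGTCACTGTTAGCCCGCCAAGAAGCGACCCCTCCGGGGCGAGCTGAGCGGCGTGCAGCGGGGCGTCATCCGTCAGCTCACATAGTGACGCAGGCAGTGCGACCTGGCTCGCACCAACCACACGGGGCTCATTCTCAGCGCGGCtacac

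The first 65 of the 423 bases of Terc (chr3:96414437-96414859, minus strand) hold the template, and capitals mark CTAACCC, at bases 29 to 35, which is complementary to the telomere repeat.
Terc bases 1 to 65: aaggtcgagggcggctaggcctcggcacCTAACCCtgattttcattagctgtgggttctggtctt
Rnu12 (chr15:83149644-83149794, plus strand) is shown whole because it carries AAGGAA from base 20, which pairs with the branch site of minor introns, and ATTTTTG from base 75, a sequence of the kind bound by the Sm protein ring. Capitals mark both.
Rnu12: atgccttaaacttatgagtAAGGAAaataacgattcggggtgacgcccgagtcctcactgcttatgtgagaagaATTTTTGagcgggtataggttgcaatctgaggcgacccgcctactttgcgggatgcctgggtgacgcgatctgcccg
The Y RNAs Rny1 (chr6:47788069-47788180, minus strand) and Rny3 (chr6:47781624-47781725, plus strand) are shown because the first was counted and the second was not. In their alignment 81 of 112 columns were identical (72.3%), and capitals mark the runs of at least 8 identical bases, of 8, 12 and 8 bases.
Rny1: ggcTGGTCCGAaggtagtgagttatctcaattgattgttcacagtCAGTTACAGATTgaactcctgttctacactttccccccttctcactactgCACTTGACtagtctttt
Rny3: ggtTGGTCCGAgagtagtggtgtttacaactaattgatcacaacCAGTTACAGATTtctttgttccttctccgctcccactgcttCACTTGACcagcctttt

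These short motifs are descriptions of the letters and are common to different degrees. Searched in the transcript strand, CTAACCC was in 0.944% of the 22672 other annotated transcripts of 100 to 450 bases, and in Vaultrc5 as well as Terc among the members. AAGGAA was in 19.1% of them, ATTTTTG in 2.42% and GATC in 60.4%. GATC also occurred 4 times in each of Rn7s1 and Rn7s2 and once in each of Rny3 and Rnu12, and so is not particular to Rn7sk. On either strand the shares were 1.55% for CTAACCC, 27.9% for AAGGAA, 5.40% for ATTTTTG and 60.4% for GATC, which reads the same on both strands. A 3′ end of at least 3 T was found in Rn7sk, Rny1, Rny3 and Vaultrc5, and in 4.00% of the other transcripts of this length. Rn7s1 and Rn7s2 end in 2 T as annotated, and Rpph1, Rmrp, Terc and Rnu12 end in another base. RNase P and RNase MRP RNAs are relatives that share proteins, but Rpph1 and the 271-base Rmrp were identical in 176 of 339 aligned columns (51.9%), with a longest shared stretch of 9 bases. GC content ranged from 43.8% in Rny1 to 67.1% in Rpph1 and Terc.

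The gene tables held 36512736 expected counts (reads shared out among transcripts by the authors' quantifier) in replicate 1 and 34454892 in replicate 2. Spike-ins took 0.904% and 0.885% of them, and mitochondrial genes 19.6% and 15.6%. The labelled tissue was checked with marker genes: all 6 cortex genes and all 5 medulla genes were at 1 TPM or more in both libraries, with summed levels of 14060 and 15614 TPM for the cortex and 2107 and 1852 TPM for the medulla. TPM is a level scaled by effective length, the number of positions at which a read could start, so that all genes of a library sum to the same total. Markers of other cells were also present and differed between the libraries: 4 brown fat genes summed to 1388 and 701 TPM, 4 white fat genes to 2975 and 2360 TPM, and 5 red cell genes to 1948 and 1174 TPM. All 13 of these genes were lower in replicate 2. Liver genes summed to 1.68 and 7.02 TPM, kidney genes to 1.65 and 4.72 TPM, and lymphocyte and macrophage genes to 52.0 and 53.5 TPM. Their part in the results below was not tested.

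Together the structural RNAs took 8.57% of all expected counts in replicate 1 and 9.09% in replicate 2, with exact (Clopper-Pearson) 95% bounds of 8.565 and 8.583% and of 9.081 and 9.100%. By TPM they took 39.5% and 42.5% of each library, so that without them the TPM of every other gene would be 1.65-fold and 1.74-fold higher. These and the later counting intervals allow for counting error alone, as the reads carry no molecular identifiers and several can stem from 1 molecule. The members' counts were nearly equal, at 3130452 in replicate 1 and 3132081 in replicate 2. Their higher share in replicate 2 thus came with a smaller total, of which mitochondrial genes took 15.6% against 19.6% in replicate 1. Of the members' own counts, 7SL held 85.9% in both libraries, Rn7sk 10.9% and 10.7%, Rpph1 and Rmrp 3.21% and 3.40%, and the remaining 5 genes 301 and 273 counts in all. Within the annotation's class of miscellaneous RNAs the members held 99.98% of the counts in both libraries, and within its class of ribozymes 95.91% and 95.90%. Among small nuclear RNAs, Rnu12 held 0.0839% and 0.0923%. Of the 11 entries, 10 had at least 1 TPM in both libraries, against 23.4% of all genes. That bar is low for the shortest entries, as 1 count of Rny1 was worth 1.98 and 2.13 TPM. Rn7s1 and Rn7s2 share their reads, as do the Rmrp entries, so the 10 are not separate measurements.

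**Figure D1:**
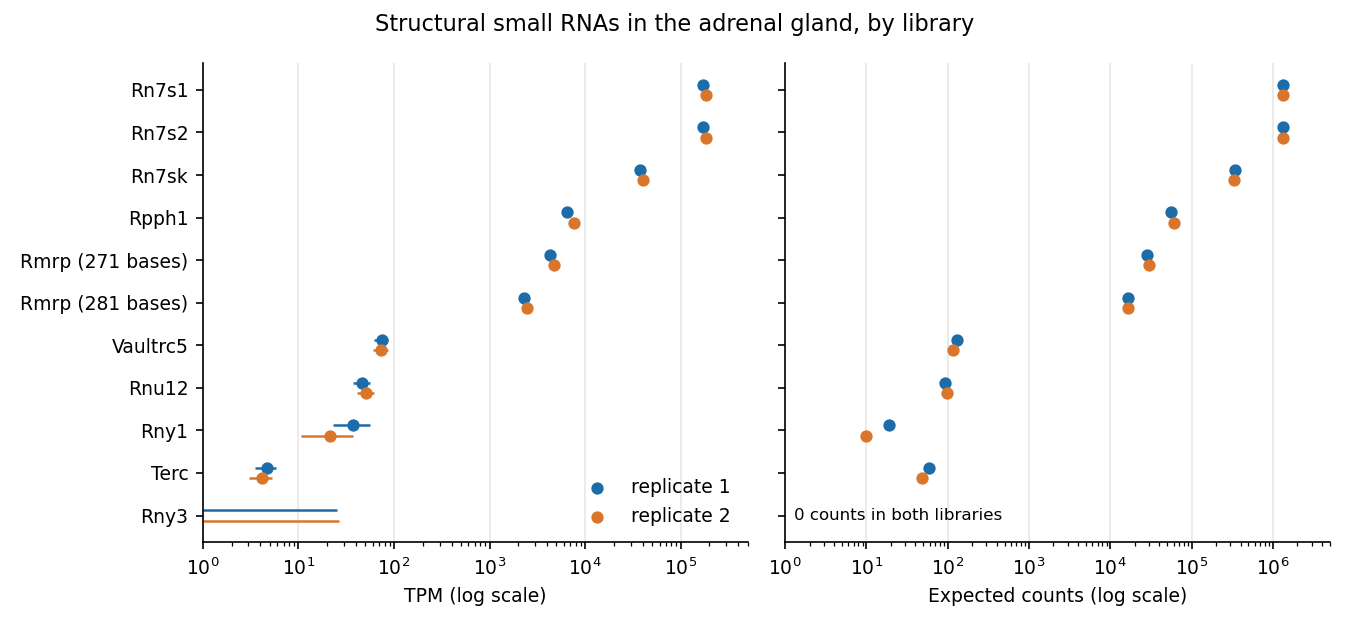
Level of each entry in TPM (left) and in expected counts (right), both on log axes, with replicate 1 in blue and replicate 2 in orange. Lines on the left are the 95% credible intervals the authors deposited, and those of Rny3 run from below the axis to 25.4 and 26.6 TPM. The entries from Rn7s1 to Rmrp lie at 2309 TPM or more and the points of the rest at 75.5 TPM or less.

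The 7SL RNAs had the highest TPM of all genes. By expected counts each had rank 3, and their sum had rank 2. Each of Rn7s1 and Rn7s2 was given 1343980 expected counts in replicate 1 and 1344804 in replicate 2, or 172072 and 184909 TPM (178491 ± 9077, SD, n = 2). The even split between identical sequences is the quantifier's, so only the sum is a measurement. The sum was 2687961 and 2689609 counts, and 344145 and 369818 TPM (356982 ± 18154, n = 2), which is 34.4% and 37.0% of all TPM. Replicate 2 was higher by TPM, and the ratio of scaled counts was close to 1. The authors' posterior SD for Rn7s1, a measure of how uncertain the assignment of reads is, was 21175 and 19683 counts, against 4.26 and 3.71 counts for Rn7sk, which has no identical twin.

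Other annotated genes share stretches with 7SL, but few counts were assigned to them. A stretch of at least 50 bases on the same strand was shared with 11 genes other than the pair, which held 222 and 195 counts in all. One of them by name, Rn7s6 (chr6:69516339-69516629, plus strand), was at 126 and 105 counts, or 16.8 and 15.1 TPM (16.0 ± 1.22, n = 2). The split between Rn7s6 and its abundant relatives rests on the quantifier and is uncertain. Of the 4 microRNA entries that overlap the 7SL loci, Gm47295, Gm47287, Gm47299 and Gm47305, none had a count. They are 70 to 80 bases long, and effective length fell 99 bases short of annotated length for the members. Their 0 counts therefore do not show absence. Rps29, a ribosomal protein gene on the opposite strand 108 bases from Rn7s1, stood at 442 and 412 TPM.

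Rn7sk had rank 5 of all genes by TPM and rank 9 by expected counts. It held 341614 and 335845 counts, or 37893 and 40008 TPM (38951 ± 1495, n = 2). 7SL exceeded it by 7.87 and 8.01 times in counts and by 9.08 and 9.24 times in TPM, so the proportion between the most abundant members differed little between the libraries. Related genes took little: 7 others that share at least 50 bases with Rn7sk held 139 and 130 counts. The noncoding gene C920006O11Rik starts 280 bases away on the opposite strand and had 26.0 and 25.0 counts.

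The RNAs of RNase P and RNase MRP were of nearly equal level. Rpph1 (chr14:50807449-50807767, minus strand, 319 bases) held 55844 and 60433 counts, or 6532 and 7592 TPM (7062 ± 749, n = 2). The Rmrp entries together held 44732 and 45921 counts, or 6558 and 7235 TPM (6897 ± 478, n = 2). The ratio of Rpph1 to Rmrp was 0.996 and 1.05 in TPM, so the order of the pair changed between the libraries on that scale. In counts, which do not allow for length, it was 1.25 and 1.32.

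Within Rmrp the 271-base entry, annotated as a ribozyme, held 28401 and 29618 counts, and the 281-base entry, annotated as a long noncoding RNA, held 16331 and 16303. The shorter entry thus took 63.5% and 64.5% of the locus. As the longer entry adds only the 5 bases on each side, the split rests on reads that reach those bases and on the quantifier's model, and its posterior SD was 498 and 639 counts. Ccdc107, a protein-coding gene, overlaps the 281-base entry by 164 bases on the opposite strand and held 542 and 567 counts. The strand setting of the counting is not given in the sources used here, so reads of the overlap cannot be told apart. Ccnb1ip1 overlaps Rpph1 by 284 bases on the same strand and held 1.00 and 2.68 counts. Parp2 starts 73 bases from Rpph1 in the opposite direction and stood at 423 and 456 counts, or 7.53 and 8.34 TPM.

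Copies named after RNase P RNA were given unequal counts. Rprl3 (290 bases) held 3593 and 3850 counts, or 484 and 557 TPM (521 ± 51.6, n = 2), while Rprl2 and both entries of Rprl1 had 0 counts. Rpph1 and Rprl3 shared no stretch of 50 bases. Rprl2 is also 290 bases long. Whether its sequence matches that of Rprl3 was not examined, so the split between them is uncertain.

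Terc had the lowest TPM of the members with counts. It held 59 and 49 counts, or 4.69 and 4.18 TPM (4.44 ± 0.361, n = 2), with deposited credible intervals of 3.53 to 5.88 and 3.04 to 5.35 TPM that overlap. Its neighbour Gm21960 had 2.00 and 3.00 counts, and no other gene shared 50 bases with Terc. Rnu12 held 94 and 97 counts, or 46.5 and 51.5 TPM (49.0 ± 3.56, n = 2), with overlapping credible intervals of 36.9 to 55.7 and 41.4 to 61.6 TPM. Poldip3, 259 bases from Rnu12 on the opposite strand, was at 2934 and 3140 counts, or 26.0 and 30.1 TPM.

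The Y RNAs were at the edge of detection. Rny1 held 19 and 10 counts, or 37.6 and 21.3 TPM (29.4 ± 11.6, n = 2), with overlapping credible intervals of 23.0 to 56.4 and 10.7 to 37.0 TPM. Rny3 had 0 counts in both libraries. With an effective length of 3 bases, 3 counts of Rny3 would be worth 25.7 and 27.6 TPM, which is the limit that a count of 0 allows. That limit is near the level of Rny1, so a difference between the Y RNAs was not detectable at this depth. No gene other than the pseudogene Rpl31-ps7, at 0 counts, was annotated within 2 kb of Rny1.

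The vault RNA Vaultrc5 (chr18:36801866-36802008, plus strand, 143 bases) held 129 and 117 counts, or 75.5 and 73.5 TPM (74.5 ± 1.39, n = 2). Its credible intervals were 62.0 to 87.6 and 59.7 to 86.0 TPM. It was the highest of the members under 200 bases on the TPM scale.

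By TPM the order was Rn7s1 with Rn7s2, Rn7sk, Rpph1, the 271-base Rmrp, the 281-base Rmrp, Vaultrc5, Rnu12, Rny1, Terc and Rny3. The library values of neighbours in that order did not overlap, other than those of the identical pair. The deposited credible intervals of Rnu12 and Rny1 did overlap in replicate 1 (36.9 to 55.7 and 23.0 to 56.4 TPM). In replicate 2 those of Vaultrc5 and Rnu12 overlapped (59.7 to 86.0 and 41.4 to 61.6 TPM). Each of these pairs was apart in the other library, so the order of Vaultrc5, Rnu12 and Rny1 is not firm. The place of Rny3, however, is not set, as its 0 counts allow more TPM than Terc had. Its deposited posterior mean was 8.43 and 9.04 TPM, close to the 8.58 and 9.21 TPM that 1 count would be worth. The lower part of the order depends on how length is treated. The effective length the authors deposited was the annotated length minus 99 bases for each entry, which leaves 324 bases for Terc, 52 for Rnu12, 44 for Vaultrc5 and 13 for Rny1. One count was therefore worth 0.0795 and 0.0853 TPM for Terc but 1.98 and 2.13 TPM for Rny1. Compared with CPM (counts scaled to the library total) per kilobase of annotated length, TPM was 8.12 times as large for Rny1, 3.08 for Vaultrc5, 2.75 for Rnu12 and 1.24 to 1.49 for the other entries. In CPM per kilobase Rny1 and Terc had means of 3.62 and 3.59 and their library values overlapped, whereas by TPM Rny1 was 6.64-fold above Terc, and by raw counts Terc was the higher.

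**Figure D2:**
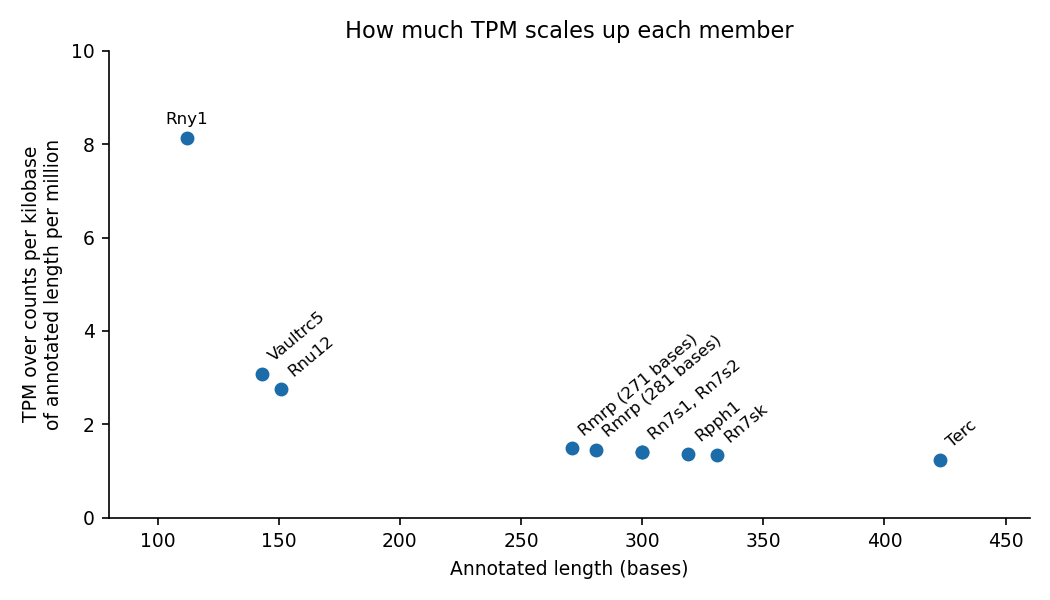
Mean TPM divided by mean CPM per kilobase of annotated length (vertical axis, starting at 0) against annotated length in bases, 1 point for each entry with counts. The value is 8.12 for Rny1, 112 bases long, and falls to 1.24 for Terc, 423 bases long.

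Replicate 2 was compared with replicate 1 to show how closely each RNA repeated. Ratios are log2 of expected counts plus 0.5 over library sizes scaled by TMM, which centres the bulk of genes, and the median of 12430 genes with a mean of at least 100 counts was -0.004. Of the 7 entries with that many counts, 0 were over 1.5-fold apart, against 2.68% of all genes tested. All of the 7 but Vaultrc5 had at least 16303 counts in each library, and their counting intervals were narrow. The median absolute log2 ratio of all these genes was 0.108.

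The abundant RNAs repeated closely. The ratio was 0.01 for 7SL (95% counting interval 0.009 to 0.013), -0.01 for Rn7sk (-0.021 to -0.008), 0.07 for the 271-base Rmrp (0.047 to 0.094) and 0.01 for the 281-base Rmrp (-0.024 to 0.039). Rpph1 had the largest of these at 0.12 (0.107 to 0.141), which is about the size found for a typical gene. Nearly all genes in that comparison had fewer counts, however, and so more counting error, as Rpph1 had rank 35 by expected counts. Genes of like count were not compared. Higher beyond counting error were 4 of the 7 (Rn7s1, Rn7s2, Rpph1 and the 271-base Rmrp), against 18.8% of genes, and lower was 1 (Rn7sk), against 19.8%. Rn7s1 and Rn7s2 are 1 measurement here. Scaled by total count, by spike-ins or as a ratio of TPM, the median of all genes moved to 0.07, 0.10 and 0.08. The ratio of Rn7sk moved to 0.06, 0.09 and 0.08, so its direction depends on the scaling. In the same order the ratio of 7SL moved to 0.08, 0.12 and 0.10, and that of Rpph1 to 0.20, 0.23 and 0.22.

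The scarce RNAs had wide intervals that all spanned 0. The ratio was -0.13 for Vaultrc5 (-0.50 to 0.24), 0.06 for Rnu12 (-0.37 to 0.48), -0.26 for Terc (-0.83 to 0.31) and -0.88 for Rny1 (-2.18 to 0.26). Rny1 was thus lower in replicate 2 by more than 1.5-fold on 29 counts in all, and a difference was not detectable at this depth. Mitochondrial genes and the fat, red cell and medulla markers, whose levels in both libraries are given above, were lower in replicate 2. Summed levels of cortex, liver and kidney markers were higher, and those of lymphocyte and macrophage genes nearly equal. Whether any of these bear on the ratios was not tested.

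**Figure D3:**
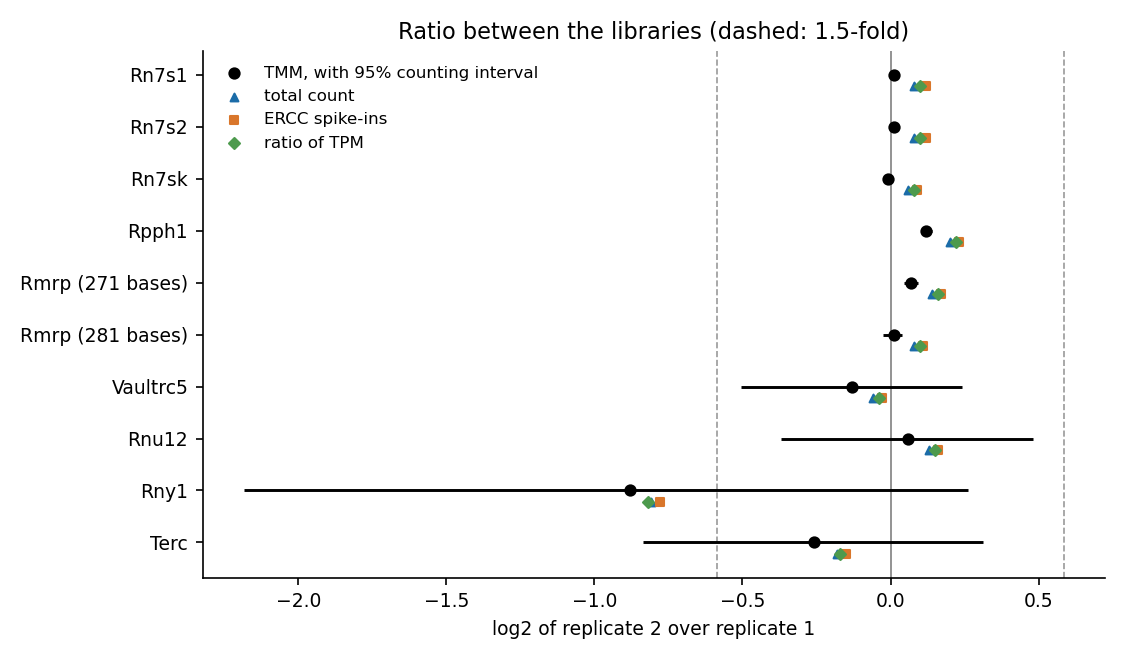
Log2 ratio of replicate 2 over replicate 1 for the 10 entries with counts. Black points and lines are TMM-scaled ratios with 95% counting intervals, and coloured marks are the ratios scaled by total count, by ERCC spike-ins or taken from TPM. Dashed lines mark 1.5-fold, and only the point of Rny1 lies beyond them, with an interval of -2.18 to 0.26.

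The mRNAs of proteins that bind or make these RNAs were present throughout. Of 81 symbols in 8 lists, 79 were in the table. Each of the 79 was at 1 TPM or more in both libraries, against 23.4% of all genes, coding or not. Not found were Srpra and Ro60, symbols listed beside Srpr and Trove2, which were found. Counts of genes higher or lower below are those beyond counting error at a mean of at least 100 counts, read against 18.8% and 19.8% of all genes, and 0 of them were over 1.5-fold apart. Levels of an RNA and an mRNA are compared in TPM, and they are levels of RNA, not of protein. As shown above, TPM scales short RNAs up more than CPM per kilobase of annotated length does. Which scale lies closer to the true level of a short RNA was not tested. Multiples of a list's median use the median within each library, whereas the medians printed are those of the mean TPM.

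Signal recognition particle mRNAs had a median of 23.2 TPM over 10 genes, and 7SL exceeded the median within each library 15295-fold and 15178-fold. Srp14, a protein of the domain that pauses translation, was highest at 71.2 and 72.8 TPM (72.0 ± 1.10). The receptor subunit Srpr followed at 45.4 and 48.5 TPM (47.0 ± 2.26), and Srp72 at 42.1 and 47.4 TPM (44.7 ± 3.73). The median ratio was 0.00, with 3 higher and 1 lower. Srp54a, Srp54b and Srp54c are near-identical copies of the GTPase subunit, and the split among them, at means of 36.2, 23.0 and 12.3 TPM, is uncertain.

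In the 7SK list, of 7 genes with a median of 13.1 TPM, the P-TEFb inhibitor Hexim1 was highest at 24.2 and 23.0 TPM (23.6 ± 0.877). The kinase Cdk9 was at 20.2 and 23.9 TPM (22.0 ± 2.60), and Mepce, which caps 7SK, at 13.4 and 17.7 TPM (15.6 ± 3.00). 7SK exceeded the list's median within each library 3103-fold and 2841-fold. The median ratio was 0.12, with 4 higher and 1 lower of the 6 genes with at least 100 counts. Hexim1 was the lower one, at -0.17 (-0.24 to -0.10). Hexim2, singled out after its values were seen and below the minimum for a call, had a ratio of -0.82 (-1.35 to -0.31) at 2.02 and 1.52 TPM.

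RNase P and RNase MRP proteins, which the particles largely share, had a median of 9.42 TPM over 11 genes, led by Pop5 at 24.3 and 27.6 TPM (25.9 ± 2.28), Rpp21 at 12.6 and 14.6 TPM (13.6 ± 1.44) and Rpp25l at 11.2 and 12.6 TPM (11.9 ± 1.00). Rpph1 and Rmrp summed exceeded the median within each library 1429-fold and 1532-fold. The median ratio was -0.01, and 0 of the 10 genes with at least 100 counts lay beyond counting error in either direction.

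On the deposited TPM scale, telomerase was the one list whose RNA lay below the median of its protein mRNAs in both libraries. With TPM recomputed from annotated length Rny1 had a mean of 4.35 TPM, below both mRNAs of its own list at their deposited levels. The 7 genes had a median of 12.4 TPM, and Terc stood at 0.412 and 0.340 times the median within each library. Nop10, a box H/ACA protein shared with small nucleolar particles, was highest at 35.4 and 31.3 TPM (33.4 ± 2.93), followed by its partners Nhp2 at 22.1 and 23.3 TPM (22.7 ± 0.856) and Gar1 at 11.4 and 14.7 TPM (13.1 ± 2.35). Tert, the reverse transcriptase, was the lowest at 1.96 and 2.42 TPM (2.19 ± 0.325). The median ratio was -0.03, with 0 higher and 2 lower, Nop10 and Dkc1.

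The U11/U12 list of 9 genes had a median of 7.07 TPM, and Rnu12 was 6.73 and 7.13 times the median within each library. With TPM recomputed from annotated length Rnu12 had a mean of 21.5 TPM, nearer to the list's deposited median. Zcrb1 was at 22.4 and 23.9 TPM (23.1 ± 1.08), Zmat5 at 17.6 and 23.3 TPM (20.4 ± 4.07) and Zrsr1 at 9.97 and 11.4 TPM (10.7 ± 1.05). The median ratio was 0.10, with 2 higher, Zmat5 and Pdcd7, and 0 lower.

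Of the Y RNA binding genes, Ssb, which encodes the La protein that holds the 3′ end of polymerase III transcripts, was at 46.8 and 54.5 TPM (50.6 ± 5.45). Trove2, which encodes Ro, was at 5.23 and 6.12 TPM (5.68 ± 0.629). Rny1 was 1.45 and 0.702 times the median of the pair within each library, so the order of RNA and mRNA was not the same in both libraries. Among vault genes, the major vault protein Mvp was at 33.3 and 37.2 TPM (35.3 ± 2.78), Parp4 at 9.73 ± 0.375 TPM (mean and SD of both) and Tep1 at 4.50 and 5.82 TPM (5.16 ± 0.933). Vaultrc5 was 7.97 and 7.35 times their median within each library. With TPM recomputed from annotated length Vaultrc5 had a mean of 29.2 TPM, nearer to the deposited median of the vault genes.

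RNA polymerase III and its factors, 30 genes, had a median of 7.29 TPM and ranged from 1.76 TPM for Polr3g to 27.2 TPM for Maf1. Maf1, a repressor of the polymerase, was at 27.1 and 27.3 TPM (27.2 ± 0.113), and the TFIIIC subunits Gtf3c1 and Gtf3c2 at 17.8 and 20.5 TPM (19.1 ± 1.94) and 15.0 and 16.8 TPM (15.9 ± 1.23). The median ratio was 0.02, with 6 higher and 4 lower. In bulk tissue fewer cells and less RNA per cell cannot be told apart.

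**Figure D4:**
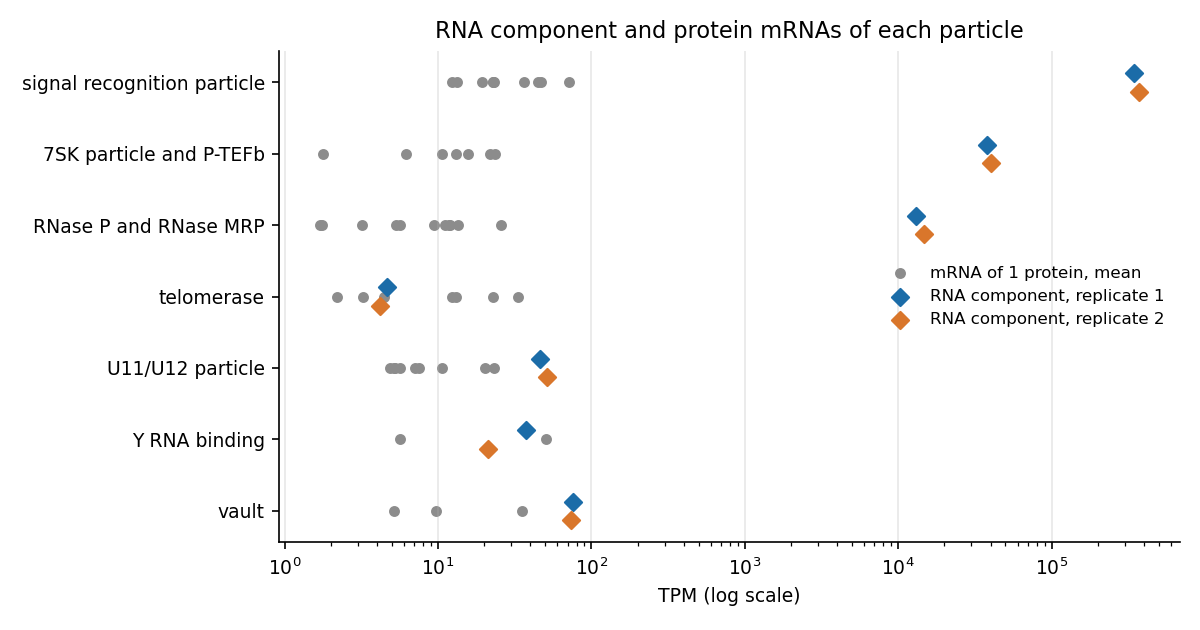
TPM on a log axis for the RNA component of each particle (diamonds, replicate 1 blue and replicate 2 orange) and for the mRNA of each listed protein (grey points, mean of 2 libraries). 7SL stands for the sum of Rn7s1 and Rn7s2, and the RNase P and RNase MRP diamond for Rpph1 and Rmrp summed. Terc, at 4.69 and 4.18 TPM, lies among its protein mRNAs, and the RNAs of the first 3 particles lie at 13091 TPM or more.

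The authors also deposited a read-based table, made from the reads and an index, and in it nearly all of these RNAs were missing. Its estimated counts were 3 and 3 for each of Rn7s1 and Rn7s2, 4 and 6 for Rn7sk, 15 and 17 for Rpph1 and 0 for Rmrp. Terc, the longest member, kept 29 and 24 estimated counts, 49.2% and 49.0% of its expected counts. A read-based count under 1% of the alignment-based one was found for 8 of 9 entries with 1 transcript and a mean of at least 20 counts, against 10.5% of such genes of any length. Among genes of 350 bases or less it was found for 8 of 8 entries, against 96.3%, so the loss was shared with other RNAs of that length. Over all genes of this kind, the read-based count divided by the alignment-based one had a median in replicate 1 of 0 from 100 to 350 bases, 0.258 from 400 to 450 bases (0.12 in replicate 2) and 1.00 from 1000 to 2000 bases.

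**Figure D5:**
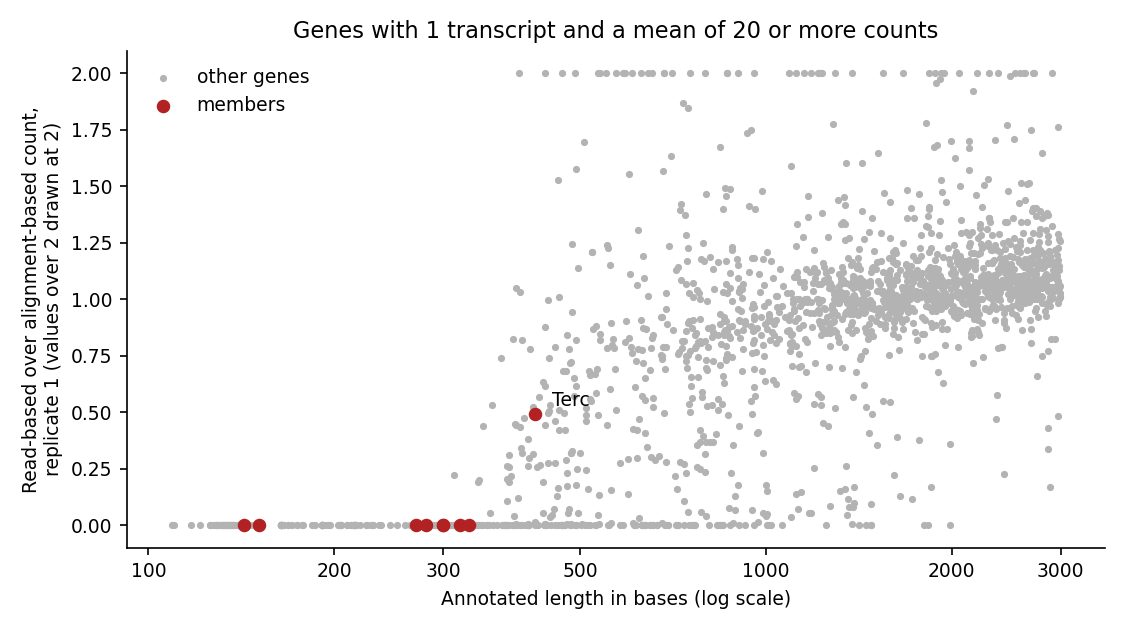
Read-based over alignment-based count in replicate 1 against annotated length on a log axis, for genes up to 3000 bases with 1 transcript and a mean of at least 20 counts. Red points are the structural RNAs and grey points all other such genes, with values over 2 drawn at 2. Red points lie at or near 0 except Terc, at 49.2% of its alignment-based count.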

How the data were processed

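Total RNA-seq of 2 libraries of 1 group was used. The authors deposited, per the file headers, alignment-based gene and transcript tables of expected counts and TPM with posterior means and credible bounds, and read-based tables of estimated counts and TPM, whose values were summed per gene. The build was mm10 and the annotation GENCODE M21, per the deposited file notes; tools and strand setting are not given in the sources used here. Expected counts summed to 36512736 and 34454892. Rows of transfer RNA stayed in the totals with 1.28e-05% of the counts in replicate 1.

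TMM (edgeR 4.0.16, R 4.3.3) was computed over all genes after a filter at 10 counts. Ratios used a pseudocount of 0.5, with exact Clopper-Pearson intervals (scipy 1.17.1) at 95% for counting error. A gene was over the threshold at 1.5-fold and a mean of at least 100 counts, and list medians used a mean of at least 20. With 1 group no test between groups was made. Ratios, calls and counting intervals were tested on simulated counts that held no spread beyond counting error. That test therefore does not cover other spread between libraries. The genome sequence of no member was read: transcripts came from the annotation, and alignments from Biopython 1.88. The sequences of Rn7s1, Rn7s2, Rpph1 and Vaultrc5 and parts of Rn7sk and Terc are not reported here. Alternatives were DESeq2 (1.42.0) size factors, total count, spike-ins, TPM, TPM from annotated length, posterior mean TPM, read-based values, other minimums and a pseudocount of 5.

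Members and lists were chosen with earlier results of these data known. Named besides members were, of each list, the 3 genes of highest mean TPM, any under 1 TPM or over 1.5-fold apart, genes within 2 kb of a member, copies by symbol and the 10 other small RNAs of highest count. Tert, Dkc1, Pdcd7, Polr3g, Hexim2 and the lower copies of Srp54a were named after their values were seen.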

Additional observations from a re-analysis of the deposited data

How the results depend on the processing

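No paired analysis was possible because there is 1 group. Read-based tables changed the results most: 5 entries, not 10, reached 1 TPM in both libraries, and the members took 0.00240% of TPM and 0.000157% of counts, against means of 41.0% and 8.83%. TPM recomputed from annotated length gave 35.1%, and a total without mitochondrial, spike-in and transfer RNA rows gave 10.8% of counts. Leaving out a replicate gave 39.5 to 42.5% of TPM, 8.57 to 9.09% of counts and 10 entries at 1 TPM. The deposited posterior mean TPM put 11 entries at 1 TPM and Rny3 at a mean of 8.73 TPM, above Terc. As Rny3 had 0 counts and 1 count would be worth 8.58 and 9.21 TPM, this value is no sign that it was detected. With no count minimum 1 entry, Rny1, was over 1.5-fold apart. By raw counts 2 members, Rny1 and Terc, changed places. Entries apart beyond counting error numbered 5 or 6 in each setting. The ratios of Vaultrc5, Rnu12, Terc and Rny1 are limited by their few counts.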

Other observations

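The other small RNAs with the most counts were mainly small nuclear RNA genes, in sets of equal length and equal counts. Gm23444 and Gm23472 held 10982 and 10407 counts each in replicates 1 and 2, and Gm23849, Gm23971, Gm24950 and Rnu2-10 held 10286 and 9544 each, all at 191 bases. Gm22068 and Gm22317, of 164 bases, held 3734 and 3671 each. Whether the genes of a set are identical in sequence was not examined, so equal counts within a set are not taken as separate measurements. Scarna2, which guides modification in Cajal bodies, held 6632 and 6405 counts, or 542 and 562 TPM (552 ± 14.2, n = 2). With 414 bases it kept 1980 and 1880 read-based counts, while the 8 genes of 164 or 191 bases had 0.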
